A study of Mus musculus with 12 samples.

Results

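The genes described here encode the machinery that brings proteins into mitochondria, folds them in the matrix and degrades those that fail. A list of 38 gene symbols was looked up in the deposited count table, and 37 were found among its 15140 genes. Tomm6, a small subunit of the outer membrane translocase, was not analysed here. By function, 24 of the 37 were translocase genes, 8 were chaperone genes and 5 were protease genes. All 37 passed the filter on low counts, with at least 130 reads in every library.

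Liver messenger RNA was sequenced after polyA selection in 12 libraries of male mice. The KO group comprised 6 libraries from mice with prohibitin 1 (Phb1) deleted in adipocytes, and the WT group comprised 6 libraries from wild-type mice. Both groups received a high-fat diet (60 kcal% fat) for 3 months, begun at 7 to 8 weeks of age. The promoter that drove the adipocyte deletion is not given in the sources used here, and no label ties a library to an animal, so the p-values rest on differences among libraries, which may be technical.

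Most mitochondrial proteins are made in the cytosol and enter through the TOM complex of the outer membrane. Beta-barrel proteins then pass to the SAM complex, carrier proteins to the TIM22 complex and proteins with a presequence to the TIM23 complex, whose motor pulls them into the matrix. There the processing peptidase removes the presequence, the chaperonin folds the chain, and the proteases LONP1 and CLPXP clear damaged protein. Hepatocytes are rich in mitochondria, which carry out fatty acid oxidation, ketone body production and part of the urea cycle.

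The KO libraries held 34121087 to 37973022 counts each, and the WT libraries 30348123 to 40828767. Phb, the gene of prohibitin 1, stood at 88.6 to 100 CPM, the reads of a gene scaled to a common library total, in KO livers and at 80.0 to 91.2 CPM in WT livers (log2 fold change 0.15 ± 0.05 SE, n = 6 per group, edgeR Benjamini-Hochberg adjusted p = 0.144). Since Phb1 was removed in fat cells, its level in liver is no test of the labels. Of 8 hepatocyte markers 7 were measured, and their summed level was 69100 to 97000 CPM in KO and 67000 to 98900 CPM in WT. Of 12 macrophage markers, 12 had a negative fold change and 3 fell (edgeR adjusted p under 0.05), while 10 were lower at an unadjusted p under 0.05 and DESeq2 called 10. Their summed level was 210 to 409 CPM among KO and 353 to 561 CPM among WT libraries. In bulk tissue, fewer cells of a type and less RNA per cell cannot be told apart, and the part of the macrophage difference in the values of the import genes was not tested.

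Most of the import machinery held nearly the same RNA level in KO and WT livers. Of the 37 genes, 18 had a log2 fold change within 0.1 of 0 and 34 within 0.3 of 0. The exceptions were the channel paralogue gene Tomm40l, which fell, the unfoldase gene Clpx at 0.72 ± 0.18 and the nucleotide exchange factor gene Grpel2 at -0.38 ± 0.16 (log2, SE, n = 6 per group), and the last 2 did not pass. A single gene, or 2.70%, changed at an adjusted p under 0.05 (edgeR quasi-likelihood test, Benjamini-Hochberg adjustment over 15000 tested genes), against 2.64% of all tested genes, of which 1.15% were higher and 1.49% lower in KO. That share was thus close to the background.

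Small differences nevertheless ran mostly one way. Of the 37 genes, 28 or 75.7% had a positive fold change, against 50.6% of all tested genes, and the median log2 fold change was 0.08 against 0.00. The share of counts from 19 genes of the mitochondrial genome was 5.86% ± 0.354 in KO and 5.37% ± 0.225 in WT (mean ± SD over 6 libraries each, exact permutation p = 0.0173, unadjusted), and its part in this shift was not tested. The median was 0.08 for translocases, 0.05 for chaperones and 0.15 for proteases. At an unadjusted p under 0.05 there were 13 genes or 35.1%, 10 higher and 3 lower in KO, against 21.2% of all tested genes. The genes of a library share its composition and are not independent, so these shares are a description. In 4 genes, Timm22, Timm21, Pmpca and Pmpcb, every KO library lay above every WT library, which is 10.8% of the 37 against 1.29% of all tested genes. No gene of the 37 had every KO library below every WT library, against 1.24% of all tested genes, and groups did not overlap in either direction for 2.53% of them.

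**Figure D1:**
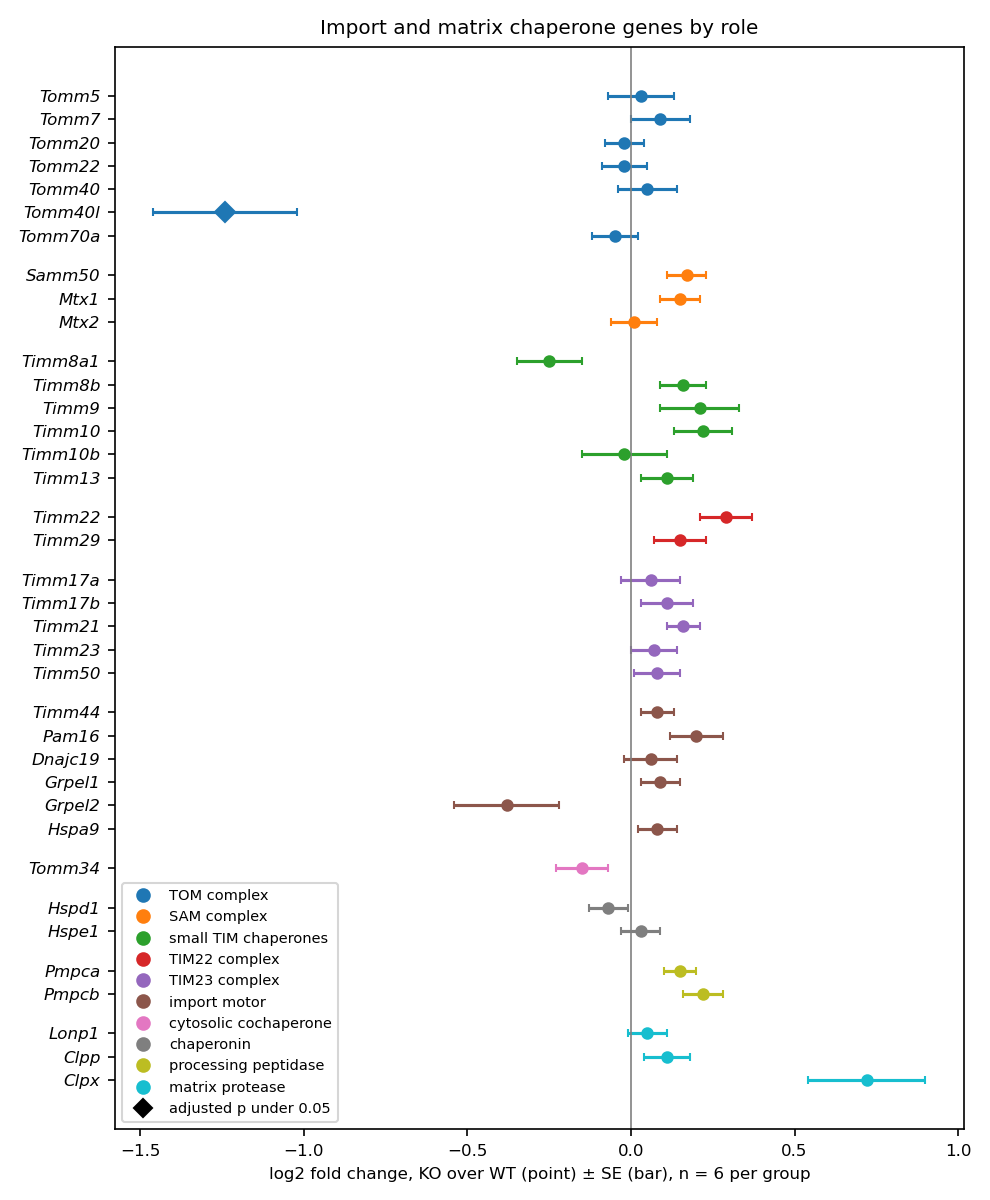
Log2 fold change of KO over WT (horizontal axis) with SE bars for the 37 genes, coloured by role, with n = 6 libraries per group. The diamond marks Tomm40l at -1.24, the only gene with an adjusted p under 0.05, and most other points lie between 0 and 0.3.

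Levels of different genes were compared as CPM per kilobase of exon. The chaperonin gene Hspd1 was highest, at 146 in KO and 153 in WT, ahead of the matrix HSP70 gene Hspa9 at 105 in KO and 99.1 in WT and of Hspe1 at 69.0 in KO and 67.5 in WT. Clpx stood at 61.7 in KO and 37.4 in WT, which put it above Timm8b in KO and below it in WT. The small TIM chaperone genes Timm8b and Timm13 stood at 47.0 and 35.9 in KO and 42.2 and 33.2 in WT. The lowest was Timm10b, at 1.21 in KO and 1.22 in WT, and the median over the 37 genes was 11.6. Levels varied little between libraries. The SD was under 10% of the mean in both groups for 21 genes and over 20% in either group for 3, which were Tomm40l, Grpel2 and Clpx.

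**Figure D2:**
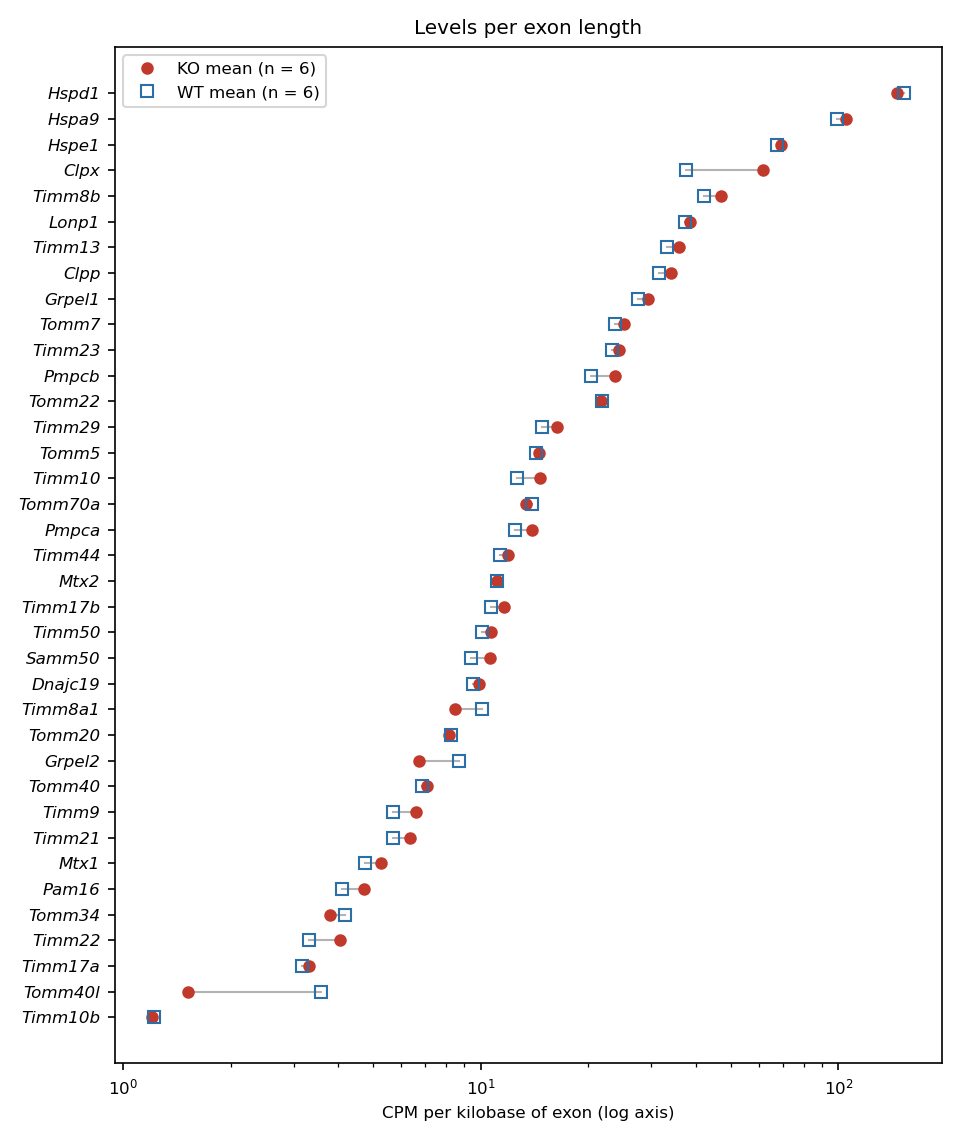
Mean level per gene in CPM per kilobase of exon on a log axis, with KO means as filled circles and WT means as open squares (n = 6 each). The order runs from Timm10b at 1.22 to Hspd1 at 149 over all 12 libraries, and the widest gaps between the groups are those of Tomm40l and Clpx.

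In the TOM complex, Tomm40l fell to 7.79 ± 2.25 CPM in KO livers, against 18.4 ± 5.45 CPM in WT livers (SD, n = 6 each). Tomm40l is the paralogue of Tomm40, which encodes the channel of the outer membrane. The lowest, median and highest levels were 5.61, 7.37 and 11.3 CPM in KO libraries and 10.8, 17.7 and 25.6 CPM in WT libraries. The groups met at WT library 6, which at 10.8 CPM lay below KO library 3 at 11.3 CPM, while the other 5 WT libraries lay above all KO libraries. The log2 fold change was -1.24 ± 0.22 (SE, edgeR adjusted p = 0.0206), and the exact two-sided permutation test of this gene alone gave p = 0.00433, unadjusted. The adjusted p (edgeR) was 0.05 without KO library 6, 0.0504 without WT library 2 and 0.0516 without WT library 4, with fold changes of -1.17, -1.12 and -1.16, so the call was lost in each case. The authors' deposited table gives Tomm40l a log2 fold change of -1.23 and an adjusted p of 0.00012.

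Tomm40l lies at chr1:171216011-171222514 (GRCm38, minus strand) and overlaps Nr1i3 on the opposite strand. Nr1i3 encodes the xenobiotic receptor CAR, which induces cytochrome P450 genes in hepatocytes. Of the 5135 annotated exon bases of Tomm40l, 3304 or 64.3% are also exon of Nr1i3, which leaves 1831 of its own. Nr1i3 fell as well, to 30.5 CPM in KO livers against 74.0 CPM in WT livers (log2 fold change -1.28 ± 0.24 SE, n = 6 per group, edgeR adjusted p = 0.0246). Its lowest and highest libraries held 20.9 and 43.3 CPM in KO and 39.1 and 99.5 CPM in WT. Whether reads were counted by strand is not given in the sources used here, so the assignment of reads in the shared part to either gene is uncertain.

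Reads of Tomm40l amounted to 26.2% ± 6.15 of those of Nr1i3 in KO libraries and to 25.1% ± 2.60 in WT libraries (SD, n = 6 each, exact permutation p = 0.807). The lowest and highest shares were 17.9% and 35.3% among KO libraries and 21.8% and 27.9% among WT libraries. Across the 6 WT libraries the log2 levels of both genes had a Pearson r of 0.95 (exact permutation p = 0.00833, adjusted over 4 relations 0.0333) and a Spearman rho of 0.89 (exact permutation p = 0.0333, adjusted 0.133). Without the 2 libraries farthest from the median of Nr1i3 the r was 0.87. Across the 6 KO libraries the r was 0.66 (exact permutation p = 0.150, adjusted 0.2) and the rho 0.54 (exact permutation p = 0.297, adjusted 0.297), and r was -0.41 without the 2 farthest libraries. Among 10 genes listed as CAR and its targets, Nr1i3, the bilirubin-conjugating enzyme gene Ugt1a1 (-0.56 ± 0.14) and the cytochrome P450 gene Cyp2a5 (-2.44 ± 0.50) fell and none rose (log2, SE, edgeR adjusted p = 0.0246, 0.0437 and 0.0307), with a median of -0.69. By sign, 8 of the 10 were negative and 2 positive. The positive genes were the cytochrome P450 genes Cyp2b10 (0.21 ± 0.74) and Cyp2c55 (0.55 ± 0.32), both of low level and not called (log2, SE). Sult1d1 stood at -0.05 ± 0.20. With each of 12 libraries left out in turn, Nr1i3 was called in 9 of the 12 edgeR fits, Cyp2a5 in 6 and Ugt1a1 in 3.

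**Figure D3:**
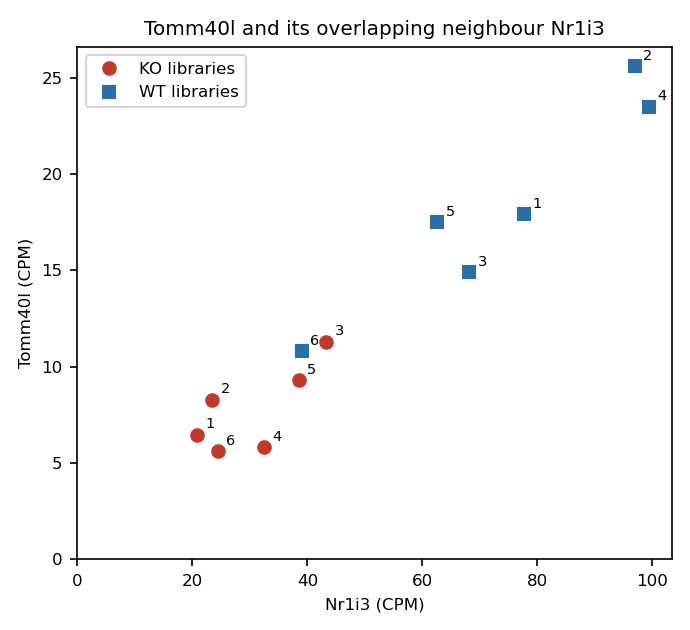
Level of Tomm40l (vertical axis, CPM) against that of Nr1i3 (horizontal axis, CPM) in each library, numbered by replicate, with KO as circles and WT as squares. WT library 6, at 39.1 and 10.8 CPM, lies among the KO libraries, and WT libraries 2 and 4 lie highest.

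The other TOM genes differed little. Tomm40 itself stood at 31.9 ± 3.08 CPM in KO and 30.9 ± 3.38 CPM in WT (mean ± SD over 6 libraries each, log2 fold change 0.05 ± 0.09 SE). Per exon length, Tomm40l held 0.212 ± 0.0434 of the level of Tomm40 in KO and 0.536 ± 0.189 in WT (mean ± SD over 6 libraries each), a ratio chosen after its values were seen and given without a test. It uses all exon bases of Tomm40l, of which 64.3% are also exon of Nr1i3, so it may not measure Tomm40l alone. Tomm7, which regulates the stability of the complex, had lowest, median and highest levels of 24.0, 27.6 and 34.7 CPM in KO and 23.4, 26.1 and 30.3 CPM in WT, and the groups overlapped widely (log2 fold change 0.09 ± 0.09 SE, edgeR adjusted p = 0.612). The receptor genes Tomm20, Tomm22 and Tomm70a had log2 fold changes of -0.02 ± 0.06, -0.02 ± 0.07 and -0.05 ± 0.07, and the small subunit gene Tomm5 had 0.03 ± 0.10 (SE). Tomm34, whose product is a cytosolic cochaperone of import, had -0.15 ± 0.08 (SE), and its median was 11.8 CPM among KO and 12.5 CPM among WT libraries.

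In the SAM complex, Samm50, which encodes the beta-barrel core, had lowest, median and highest levels of 63.1, 67.1 and 77.6 CPM in KO and 58.2, 60.9 and 64.4 CPM in WT. There were 5 of 6 KO libraries above all WT libraries, yet the log2 fold change of 0.17 ± 0.06 (SE) did not pass (edgeR adjusted p = 0.133, exact permutation p = 0.00649, unadjusted). The metaxin gene Mtx1 had 17.3, 18.9 and 20.2 CPM in KO and 15.9, 16.9 and 18.7 CPM in WT. Its log2 fold change of 0.15 ± 0.06 (SE) did not pass either (edgeR adjusted p = 0.181). Its partner Mtx2 stood at 0.01 ± 0.07 (log2, SE).

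The small TIM chaperones escort hydrophobic proteins across the intermembrane space, and none of their 6 genes changed by edgeR (3 at an unadjusted p under 0.05, 0 by DESeq2, 0 by limma-voom). Timm10, which forms the main chaperone ring with Timm9, had lowest, median and highest levels of 10.3, 11.9 and 14.0 CPM in KO and 8.77, 10.5 and 11.2 CPM in WT (log2 fold change 0.22 ± 0.09 SE, edgeR adjusted p = 0.182). Timm9 had a similar value of 0.21 ± 0.12. Timm8a1, whose human counterpart is mutated in deafness-dystonia syndrome, ran the other way, with 10.3, 11.5 and 15.1 CPM in KO and 11.2, 14.9 and 15.6 CPM in WT (-0.25 ± 0.10 SE, edgeR adjusted p = 0.193). WT library 6 lay among the KO libraries and KO library 3, at 15.1 CPM, among the WT libraries, while the other KO libraries held at most 12.7 CPM and the other WT libraries at least 14.2 CPM. Timm8b, Timm13 and Timm10b had 0.16 ± 0.07, 0.11 ± 0.08 and -0.02 ± 0.13 (log2, SE).

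Timm22, which encodes the pore for carrier proteins of the inner membrane, stood at 12.9 ± 0.325 CPM in KO and 10.5 ± 1.08 CPM in WT (mean ± SD over 6 libraries each). It was picked for this description after its values were seen. The lowest, median and highest levels were 12.5, 12.8 and 13.2 CPM in KO and 9.27, 10.1 and 12.3 CPM in WT. The KO libraries lay close together and all above WT, where library 2 was highest. The log2 fold change of 0.29 ± 0.08 (SE) did not pass with edgeR (adjusted p = 0.0616), while DESeq2 gave an adjusted p of 0.0126. The other TIM22 subunit gene, Timm29, had 0.15 ± 0.08 (log2, SE).

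In the TIM23 complex, all 5 genes had positive fold changes and none passed with edgeR (1 at an unadjusted p under 0.05, 0 by DESeq2, 0 by limma-voom). Timm21, which links TIM23 to the TOM complex and the respiratory chain, had lowest, median and highest levels of 22.6, 23.4 and 25.5 CPM in KO and 20.3, 21.1 and 22.1 CPM in WT. The groups did not overlap, and the difference was small at 0.16 ± 0.05 (log2, SE, edgeR adjusted p = 0.113). Timm17b had 27.7, 28.8 and 32 CPM in KO and 25.1, 26.1 and 32.9 CPM in WT, with WT library 6 above all KO libraries (0.11 ± 0.08 SE, edgeR adjusted p = 0.413). The channel gene Timm23, the receptor gene Timm50 and Timm17a had 0.07 ± 0.07, 0.08 ± 0.07 and 0.06 ± 0.09 (log2, SE). Timm17b exceeded its paralogue Timm17a per exon length in both groups, by 3.54 ± 0.393 times in KO and 3.40 ± 0.395 times in WT (mean ± SD over 6 libraries each, with no test).

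The import motor consists of mortalin, encoded by Hspa9, its J-domain partners, its exchange factors and the anchor encoded by Timm44. None of the 6 motor genes changed by edgeR (2 at an unadjusted p under 0.05, 0 by DESeq2, 0 by limma-voom). Hspa9 stood at 453 ± 12.6 CPM in KO and 427 ± 22.4 CPM in WT (mean ± SD over 6 libraries each, log2 fold change 0.08 ± 0.06 SE). Pam16, whose product holds the J protein in check, had lowest, median and highest levels of 10.3, 11.4 and 12.9 CPM in KO and 9.10, 10.1 and 10.9 CPM in WT (0.20 ± 0.08 SE, edgeR adjusted p = 0.188). Timm44 was the steadiest across libraries, with 42.7 to 44.8 CPM in KO and 38.5 to 43.0 CPM in WT (0.08 ± 0.05, log2, SE). Still, 5 of its 6 KO libraries lay above all WT libraries (edgeR adjusted p = 0.352, exact permutation p = 0.00866, unadjusted). The J protein gene Dnajc19, whose human counterpart is mutated in a cardiomyopathy with ataxia, had 0.06 ± 0.08.

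The exchange factor genes differed from each other. Grpel2 had lowest, median and highest levels of 30.3, 49.7 and 58.4 CPM in KO and 51.4, 55.8 and 71.0 CPM in WT. KO libraries 5 and 6, at 30.9 and 30.3 CPM, stood apart from the other 4 KO libraries, which held 49.0 to 58.4 CPM, close to or within the WT range. The log2 fold change of -0.38 ± 0.16 (SE) did not pass (edgeR adjusted p = 0.210). Grpel1 had 94.0 to 109 CPM in KO and 87.2 to 107 CPM in WT (0.09 ± 0.06, log2, SE).

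The chaperonin genes showed no difference that passed. Hspd1 encodes HSP60, which folds imported proteins in a barrel closed by the lid HSP10, encoded by Hspe1. Hspd1 had lowest, median and highest levels of 373, 382 and 401 CPM in KO and 373, 406 and 432 CPM in WT (log2 fold change -0.07 ± 0.06 SE, edgeR adjusted p = 0.531). Hspe1 had 91.1, 103 and 108 CPM in KO and 91.5, 101 and 105 CPM in WT (0.03 ± 0.06 SE, edgeR adjusted p = 0.803). The groups covered nearly the same range for Hspe1, while 4 of 6 WT libraries of Hspd1 lay above all KO libraries (exact permutation p = 0.0649, unadjusted). The level of Hspe1 per exon length was 0.474 ± 0.0219 of that of Hspd1 in KO and 0.442 ± 0.0228 in WT (mean ± SD over 6 libraries each, with no test). Within KO the log2 levels of the pair had r = 0.70 (exact permutation p = 0.111, adjusted 0.2) and rho = 0.60 (exact permutation p = 0.242, adjusted 0.297), and r = 0.36 without the 2 libraries farthest from the median. Within WT they had r = 0.51 (exact permutation p = 0.314, adjusted 0.314) and rho = 0.66 (exact permutation p = 0.175, adjusted 0.297), and r = 0.01 without the 2 farthest.

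Hspd1 and Hspe1 lie head to head on chromosome 1 and share their start region, where 112 annotated exon bases overlap. A 300-base window around the start of Hspe1 at chr1:55087898-55088197 (GRCm38.p6, plus strand, from RefSeq) is shown because it overlaps start windows of Hspd1. Of its bases, 285 lie in the Hspd1 window at chr1:55087883-55088182. The other Hspd1 window, at chr1:55088194-55088493, shares 4 bases with it and holds none of the heat shock elements named below. Whether the window acts as a promoter of both genes was not tested. Capitals mark an unbroken run of heat shock elements, in which the palindromes TTCNNGAA, GAANNTTC and TTCNNGAA begin 89, 84 and 79 bases before the start of Hspe1.
Hspe1: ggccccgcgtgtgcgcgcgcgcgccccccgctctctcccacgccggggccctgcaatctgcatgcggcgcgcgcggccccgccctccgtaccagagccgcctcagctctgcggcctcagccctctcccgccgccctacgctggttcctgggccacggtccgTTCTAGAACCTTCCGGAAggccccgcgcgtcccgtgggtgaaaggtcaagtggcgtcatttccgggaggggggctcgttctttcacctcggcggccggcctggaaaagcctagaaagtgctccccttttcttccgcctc
The element GAANNTTC was found in 7.86% and TTCNNGAA in 8.52% of all 32851 promoter windows, reading both strands. Among the 35 windows of 32 of these genes, 3 and 8 held them, or 8.57% and 22.9%. The shares were 5.82% and 7.11% among 13914 windows of tested genes. The run shown lies in bases shared by the chaperonin pair, so it counts for both genes. The ETS core CCGGAAG overlaps the same run and begins 80 and 77 bases before the start. A match is a description of the letters.

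Genes of the cytosolic heat shock response were read beside the chaperonin pair. Of 17 listed, 17 had a positive fold change with a median of 0.29, and none passed with edgeR (6 at an unadjusted p under 0.05, 1 by DESeq2, 0 by limma-voom). The lowest p-values were those of Stip1 (0.33 ± 0.11), Dnajb4 (0.32 ± 0.11), Bag3 (0.68 ± 0.23) and Fkbp4 (0.24 ± 0.09), with edgeR adjusted p from 0.106 to 0.147 (log2, SE). For each of these, KO library 5 was the highest of the 12 libraries, at 107 CPM for Bag3. It also held 96.9 CPM of Hspa1b, against a KO median of 23.5 CPM and a WT median of 31.0 CPM. The KO median was likewise below the WT median for Hspa8, Dnaja1 and Hspa4l, and above it for the rest. Among 6 genes linked to mitochondrial stress signalling, Atf4 had 0.53 ± 0.14, Ddit3 0.76 ± 0.33, Cebpb -0.46 ± 0.19 and Ubl5 0.12 ± 0.07 (log2, SE). Atf5 had 0.23 ± 0.15 and Hsf1 0.09 ± 0.08 (log2, SE). None of the 6 passed with edgeR (3 at an unadjusted p under 0.05, 1 by DESeq2, 0 by limma-voom). The value of Ddit3 rested on KO library 5, at 27.7 CPM against 4.99 to 10.1 CPM in the other KO libraries and 5.99 to 8.24 CPM in WT libraries, and was 0.29 without it. Atf4 was the closest to the threshold at an edgeR adjusted p of 0.0556, and it passed without KO library 1 (edgeR adjusted p = 0.0312) or WT library 6 (edgeR adjusted p = 0.0385). With any other library left out it did not pass, with an edgeR adjusted p of up to 0.134.

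The matrix processing peptidase cleaves presequences as a heterodimer, and both of its subunit genes had every KO library above every WT library. Pmpcb, the catalytic subunit, had lowest, median and highest levels of 109, 124 and 131 CPM in KO and 103, 105 and 107 CPM in WT. The SD was 9.50 CPM among KO libraries and 1.37 CPM among WT libraries, which lay within a narrow band. Its log2 fold change of 0.22 ± 0.06 (SE) did not pass with edgeR (adjusted p = 0.0637), while DESeq2 gave an adjusted p of 0.00797. Pmpca, the substrate-recognising subunit, had 57.2, 59.2 and 61.7 CPM in KO and 51.7, 53.7 and 55.1 CPM in WT (0.15 ± 0.05 SE, edgeR adjusted p = 0.0897, DESeq2 adjusted p = 0.0123), and 20.4% of its exon bases are shared with Inpp5e on the opposite strand, which had -0.07 (log2). The exact permutation p of each was 0.00216, unadjusted, the smallest that splits of these 12 libraries can give. The authors' deposited table gives adjusted p-values of 0.0734 for Pmpcb and 0.395 for Pmpca.

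The windows at the start sites of both subunit genes are shown because their libraries separated together. The RefSeq windows (GRCm38.p6, plus strand) are chr2:26389098-26389397 for Pmpca and chr5:21736910-21737209 for Pmpcb, each with 250 bases before and 50 after the start. Capitals mark the ETS core CCGGAAG, which begins 53 bases before the start of Pmpca and 16 before that of Pmpcb.
Pmpca: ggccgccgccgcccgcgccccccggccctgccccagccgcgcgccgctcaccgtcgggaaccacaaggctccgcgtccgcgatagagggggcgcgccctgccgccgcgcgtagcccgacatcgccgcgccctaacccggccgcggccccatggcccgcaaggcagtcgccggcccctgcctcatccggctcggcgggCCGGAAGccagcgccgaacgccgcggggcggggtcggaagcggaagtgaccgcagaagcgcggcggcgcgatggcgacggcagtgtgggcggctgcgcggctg
Pmpcb: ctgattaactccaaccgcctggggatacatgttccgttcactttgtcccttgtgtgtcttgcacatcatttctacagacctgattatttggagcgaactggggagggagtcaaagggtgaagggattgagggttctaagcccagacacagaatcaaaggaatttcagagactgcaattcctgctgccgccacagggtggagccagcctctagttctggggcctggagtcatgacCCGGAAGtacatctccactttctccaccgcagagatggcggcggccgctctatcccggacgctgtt
This core was found in 17 of the 35 windows of these genes, or 48.6%, against 16.0% of 13914 windows of tested genes and 8.86% of all windows, reading both strands. The 16 genes with it included Tomm22, Tomm70a, Timm10, Timm23, Mtx1, Mtx2, Clpp and the chaperonin pair. The log2 fold changes of all 16 ran from -0.15 to 0.22. Tomm40l, Tomm7, Timm21, Grpel2 and Hspa9 had no window and were not searched, so this range leaves out Tomm40l and Grpel2, which had the largest negative values. The chaperonin pair holds this core in shared bases, which count for both genes. Timm22, whose KO libraries also lay all above WT, and Clpx were not among the genes with this core. A link between the core and the levels was not tested. The NRF1 core was in 6 of the 35 windows against 12% of windows of tested genes, and the E-box CACGTG in 6 against 9.55%. The CCAAT box was in 10 against 37.6%, and the ERR element TCAAGGTCA in 1 against 0.295%.

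Among the matrix proteases, Clpx showed the widest difference. It encodes the unfoldase that feeds proteins to the CLPP peptidase and that also activates the first enzyme of haem synthesis. Clpx stood at 216 ± 47.1 CPM in KO and 131 ± 35.3 CPM in WT (mean ± SD over 6 libraries each), a 1.65-fold level. The KO libraries held 210, 262, 155, 241, 165 and 260 CPM (1 to 6), and the WT libraries held 169, 113, 103, 124, 94.3 and 179 CPM (1 to 6). KO libraries 1, 2, 4 and 6 lay above all WT libraries, while KO libraries 3 and 5 lay below WT libraries 1 and 6. The log2 fold change of 0.72 ± 0.18 (SE) did not pass with edgeR (adjusted p = 0.0556, exact permutation p = 0.0130, unadjusted). It passed without KO library 3 (adjusted p = 0.0438), WT library 1 (0.0499) or WT library 6 (0.0256) in edgeR, and with DESeq2 (0.00468). With any other library left out it did not pass, and the highest adjusted p over the 19 alternatives was 0.129. The authors' deposited table gives Clpx a log2 fold change of 0.73 and an adjusted p of 0.00321.

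The partner peptidase gene Clpp had lowest, median and highest levels of 38.2, 41.1 and 45.8 CPM in KO and 35.0, 38.2 and 43.3 CPM in WT, with wide overlap (log2 fold change 0.11 ± 0.07 SE, edgeR adjusted p = 0.387). Lonp1, the gene of the main protease for oxidised matrix proteins, had 151, 166 and 185 CPM in KO and 148, 165 and 170 CPM in WT (0.05 ± 0.06, log2, SE). Clpx thus stood apart from both in the size of its fold change, and a difference between these genes was not tested.

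**Figure D4:**
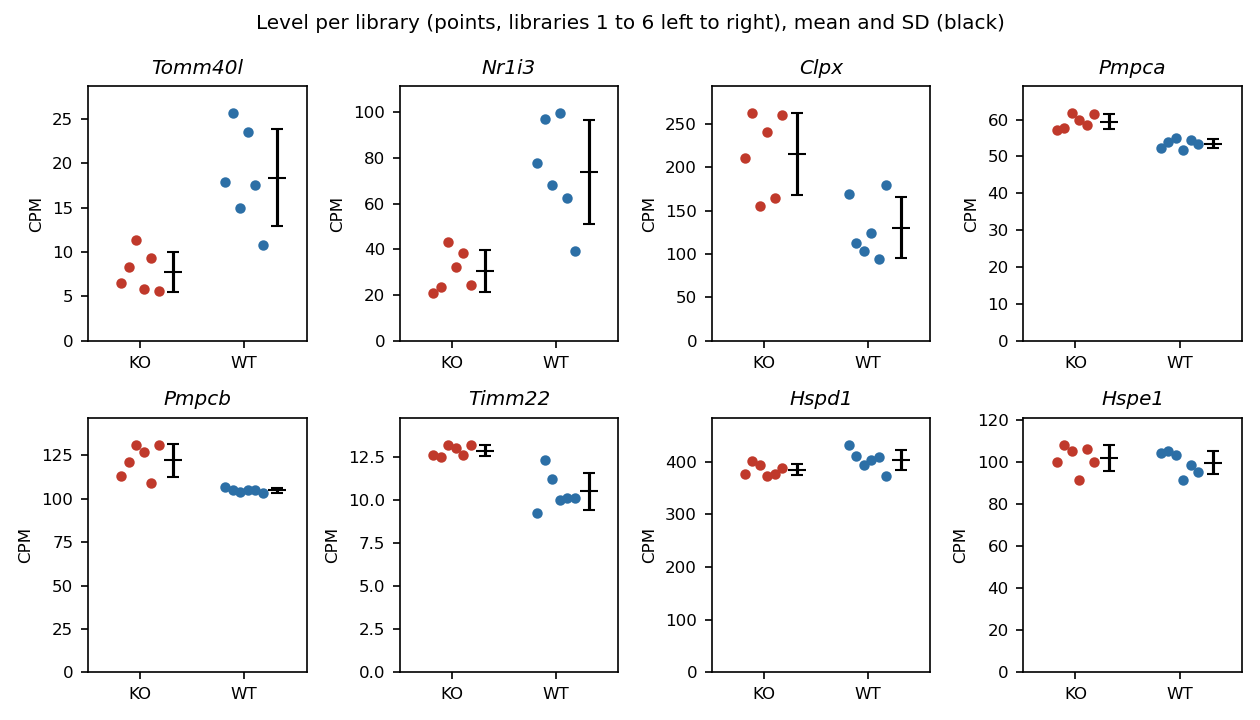
CPM per library (points, libraries 1 to 6 from left to right) with mean and SD in black, KO left of WT, n = 6 each, all axes from 0. Tomm40l and Nr1i3 are lower in KO with WT library 6 near the KO range, 4 of 6 KO libraries of Clpx lie above all WT libraries, and Pmpca, Pmpcb and Timm22 separate by small steps.

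DESeq2 called 5 of the 37 genes or 13.5% (Tomm40l lower, and Timm22, Pmpca, Pmpcb and Clpx higher), against 8.58% of all genes it gave an adjusted p, of which those higher in KO made up 4.07%. The authors' deposited table has an adjusted p under 0.05 for 2 of the 37 or 5.41% (Tomm40l and Clpx), against 5.58% of all genes. Both use the same counts as edgeR and are no separate evidence.

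Other import genes outside the 37 gave a similar picture. Of 16 measured for sorting, presequence processing and intermembrane space import, 11 were positive, the median log2 fold change was 0.07, and none passed with edgeR (3 at an unadjusted p under 0.05, 1 by DESeq2, 0 by limma-voom). Mtch2, which encodes an outer membrane insertase, had the smallest p, with every KO library above every WT library (0.19 ± 0.06, log2, SE, edgeR adjusted p = 0.0750). Mtx3, a metaxin gene, had -0.36 ± 0.13, Chchd4, the receptor of disulfide-linked import, 0.19 ± 0.08, and Romo1, a TIM23 subunit gene, 0.15 ± 0.08. Of 5 further matrix chaperone genes none passed with edgeR (2 at an unadjusted p under 0.05, 0 by DESeq2, 0 by limma-voom), among them the HSP40 gene Dnaja3 at 0.16 ± 0.07, Hscb at -0.41 ± 0.15, Trap1 at 0.08 ± 0.05 and the cyclophilin D gene Ppif at -0.14 ± 0.09 (log2, SE).

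Clock genes also moved with the groups. Of 15 measured, the repressor gene Cry1 rose (0.96 ± 0.21) and the output factor genes Tef (-0.93 ± 0.20) and Hlf (-0.80 ± 0.16) fell (log2, SE, edgeR adjusted p = 0.0360, 0.0326 and 0.0266), with a median of -0.60 over the list. At an unadjusted p under 0.05 there were 11 clock genes, 4 higher and 7 lower in KO, while DESeq2 called 10 and limma-voom 5. With each of 12 libraries left out in turn, Cry1 was called in 3, Tef in 5 and Hlf in 8 of the 12 edgeR fits. Their part in the values of Tomm40l and Clpx was not tested. The remaining cell type markers gave 1 call with edgeR, the T cell gene Lck, which fell (-1.30 ± 0.30, log2, SE, edgeR adjusted p = 0.0394, called in 4 of 12 fits with a library left out). Its level was very low, at 0.111 to 0.461 CPM in KO and 0.527 to 1.06 CPM in WT. Median log2 fold changes were -0.95 over 5 T and NK cell, -0.56 over 5 B and plasma cell, -0.70 over 3 neutrophil, -0.10 over 8 sinusoidal endothelial, 0.13 over 8 stellate, 0.40 over 5 cholangiocyte, 0.58 over 2 adipocyte, -1.13 over 7 skeletal muscle and 0.33 over 6 erythroid markers.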

How the data were processed

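Reads were counted per gene by the authors, and the deposited table holds whole-number read counts that were not normalized, per the file headers. Per the submitters' processing notes, the tools included HISAT2, featureCounts, DESeq2, SAMtools, Trimmomatic and FastQC, and the build was GRCm38, with no versions and no strand setting. The deposited table also holds the authors' own comparison, per the file headers: a log2 fold change with its standard error and test score, a p-value and adjusted p-value, and a mean normalized signal per gene, which was not used.

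The table had 15344 rows, and 204 repeated rows of a gene, equal to the first, were left out. Counts were tested with edgeR 4.0.16 (R 4.3.3; TMM, filterByExpr, robust quasi-likelihood F test, two-sided, Benjamini-Hochberg over 15000 genes, threshold 0.05). SE is the absolute log2 fold change over the square root of F. CPM use TMM-scaled totals, and exon lengths and overlaps come from GENCODE M21 (GRCm38), whose match to the authors' annotation is not given in the sources used here. No 2 libraries of a group were alike within sampling noise (30 pairs, chi-square over its degrees of freedom 38.49 to 245.29). On simulated KO against WT counts (14954 genes tested), the test recovered 46.3% of genes changed 1.5-fold, 77.6% at 2-fold and 98.5% at 4-fold. DESeq2 1.42.0, limma-voom 3.58.1, other scalings and filters, a replicate block and each library left out were tried. The members and lists were chosen with earlier results of these data known. Values are given for called genes and the 2 smallest p of each role, and Timm22 and the ratios of gene pairs were added after their values were seen. Of the 37 genes, 12 share exon bases with another tested gene, among them Tomm40l, Pmpca, Mtx1, Pam16 and the chaperonin pair, and their reads are uncertain there. Hspe1 also has a close copy in the table.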

Additional observations from a re-analysis of the deposited data

Results flagged for a closer look

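Each of 74 groups of 6 libraries was examined for a library far from the rest, as the distance on the log2 CPM scale from its closest neighbour, taken as a share of the whole range. There were 3 such groups, and chance gives about 1 in 20, or 3.70. Timm50 was high in KO library 6, at 34.0 CPM against 26.9 to 29.0 CPM in the other KO libraries (0.689). Timm8a1 was low in WT library 6, at 11.2 CPM against 14.2 to 15.6 CPM in the other WT libraries (0.716). Timm17a was high in WT library 3, at 29.6 CPM against 22.8 to 24.8 CPM in the other WT libraries (0.685).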

How the results depend on the processing

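The call of Tomm40l held in 16 of 19 alternatives. The number of the 37 genes called was 5 with DESeq2, 2 with a replicate block and 0 to 2 with each library left out. Over all genes 396 were called, against 1236 with DESeq2, 257 with total counts only, 374 with a replicate block and 25 to 700 with each library left out. The replicate block called Clpx besides Tomm40l. Same-numbered libraries had correlations from -0.204 to 0.362, and 3 of 6 KO libraries correlated best with the WT library of their number, and no label ties the numbers to a shared litter or batch, so they were not taken as pairs; the matches are a hint from the data. The share of calls that were higher in KO was 43.4%, and 36.6% to 47.5% under the other scalings, filters and tests; it was 28.3% without WT library 2 and 32% without WT library 4. Median log2 fold changes over the 37 genes stayed at 0.06 to 0.10 with each library left out. No value of the 37 genes that was called changed sign. Small folds below 1.5 were not planted in the simulation, so their recovery at this depth is unknown.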
